A study of Mus musculus with 6 samples.

Results

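The 10 genes described here encode AP-1 subunits and other immediate early transcription factors: Jun, Junb and Jund of the JUN family, Fos, Fosb, Fosl1 and Fosl2 of the FOS family, the related Atf3, the zinc finger factor Egr1, and Ier2. They were taken by gene symbol from a list, and all 10 were among the 20756 genes of the deposited table. Transcripts were read as 3' tags (QuantSeq) from organoids, tumor cells grown in basement-membrane extract, of C57BL/6 mice. Their source was an intestinal tumor's metastasis in the liver, with small intestine as the tissue label. The 3 sgPrkci libraries came from organoids with a guide to Prkci, which encodes an atypical protein kinase C (PKC lambda/iota). The 3 sgScr libraries are the controls, whose genotype label is spelled sgScbr and whose description reads WT. All 6 cultures grew with 50 ng/ml of epidermal growth factor (EGF), were left untreated and were collected at 72 h. The series text calls the 3 libraries of a group biological replicates, and the sources used here do not say whether a population was a clone or a pool.

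AP-1 is a dimer of basic leucine zipper proteins. JUN proteins can pair with each other, whereas FOS proteins bind DNA only with a partner such as a JUN protein, and the dimers recognise the sequence TGANTCA. Several of these genes are immediate early genes, which growth factors switch on within minutes through MAP kinases without new protein synthesis, and many of their messenger RNAs decay quickly. In gut epithelium and its tumors AP-1 is known as an effector of growth factor, inflammatory and stress signals.

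Depth was 2141125 to 2815760 reads in the sgPrkci libraries and 2821908 to 3048170 reads in the sgScr libraries, so that 1 read was worth 0.328 to 0.467 CPM (reads per 1000000 reads of the library). Tags come from the 3' end of transcripts in this assay, so CPM needs no scaling to gene length. The sources used here do not say whether copies of the same tag were counted once. Prkci itself had 53.9, 56.5 and 46.9 CPM in sgPrkci against 46.6, 54.5 and 63.8 CPM in sgScr (adjusted p = 0.77, limma). The sources used here do not say where the guide cuts, so a 3' tag does not check the edit. Of 8 epithelial markers 7 reached 1 CPM in at least 1 library, and their sum was 3602 to 3991 CPM in sgPrkci and 3297 to 3849 CPM in sgScr. Single epithelial markers went both ways. Epcam averaged 771 CPM in sgPrkci and 551 CPM in sgScr, and Cdh1 890.2 CPM in sgPrkci and 784 CPM in sgScr. Krt8 averaged 310.3 CPM in sgPrkci and 269 CPM in sgScr, Krt19 1289 CPM in sgPrkci and 1269 CPM in sgScr, and Vil1 of the brush border 93.1 CPM in sgPrkci and 55.6 CPM in sgScr. Krt18 averaged 461 CPM in sgPrkci and 591 CPM in sgScr, the intestinal factor Cdx2 12.5 CPM in sgPrkci and 25.8 CPM in sgScr, and Cdx1 was at 0 in sgPrkci and averaged 0.112 CPM in sgScr. The summed markers of fibroblasts (5 of 6 genes in the table) reached at most 2.34 CPM in sgPrkci and 2.01 CPM in sgScr. Those of leukocytes (3 of 7) reached 1.89 CPM in sgPrkci and 1.77 CPM in sgScr, and those of endothelium (3 of 4, with Pecam1 and Cdh5 at 0) reached 0 CPM in sgPrkci and 0.335 CPM in sgScr. Hepatocyte markers (3 of 4, with Ttr at 0) summed to 0.355 to 1.13 CPM in sgPrkci and 1.97 to 16.1 CPM in sgScr, nearly all of it Apoa1, which intestinal epithelium also makes. The part of these marker differences in the members' values was not tested. In bulk RNA a smaller share of cells with a transcript and less of it per cell cannot be told apart.

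In sgPrkci organoids Jun, Junb, Fosl2 and Egr1 rose, by 0.39 to 0.81 on the log2 scale, and the other 6 members did not pass the test. Of the 10 members, 4 rose and 0 fell at an adjusted p under 0.05 in limma on log2(CPM + 1). Of all 12195 genes tested, 11.4% rose and 20.5% fell, 31.8% in all. At an unadjusted p under 0.05 in limma, 4 members were higher and 0 lower, where 1803 of all 12195 genes were higher and 3226 lower. With edgeR 4 members were higher and 0 lower, where 15.9% of all genes were higher and 14.7% lower (30.7% in all). With DESeq2 4 were higher and 0 lower, where 11.7% of all genes were higher and 9.17% lower (20.8% in all). Scaling by TMM factors also gave 4 higher and 0 lower, where 15.7% of all genes were higher and 14.9% lower (30.6% in all). In 5 members the 3 sgPrkci values all lay above the 3 sgScr values, in 1 they all lay below, and in 4 the groups overlapped. Among all genes tested 15.9% lay wholly above and 27.1% wholly below, 43% in all. The median log2 fold change, sgPrkci minus sgScr, was 0.11 over the 10 members and -0.11 over all genes tested. That shift of all genes was -0.02 with TMM factors. Relative to the shift of -0.11, Jun stood at 0.92, Egr1 at 0.85, Junb at 0.64 and Fosl2 at 0.50, and 7 of the 10 members lay above it. The p-values measure the spread between libraries, and limma draws each gene's spread toward a trend shared by genes of like level. They therefore do not rest on a gene's own libraries alone. With plain eBayes moderation, the limma adjusted p was 0.019 for Jun, 0.021 for Junb, 0.0070 for Egr1 and 0.055 for Fosl2. The guide cannot be told apart from other differences between the organoid populations.

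**Figure D1:**
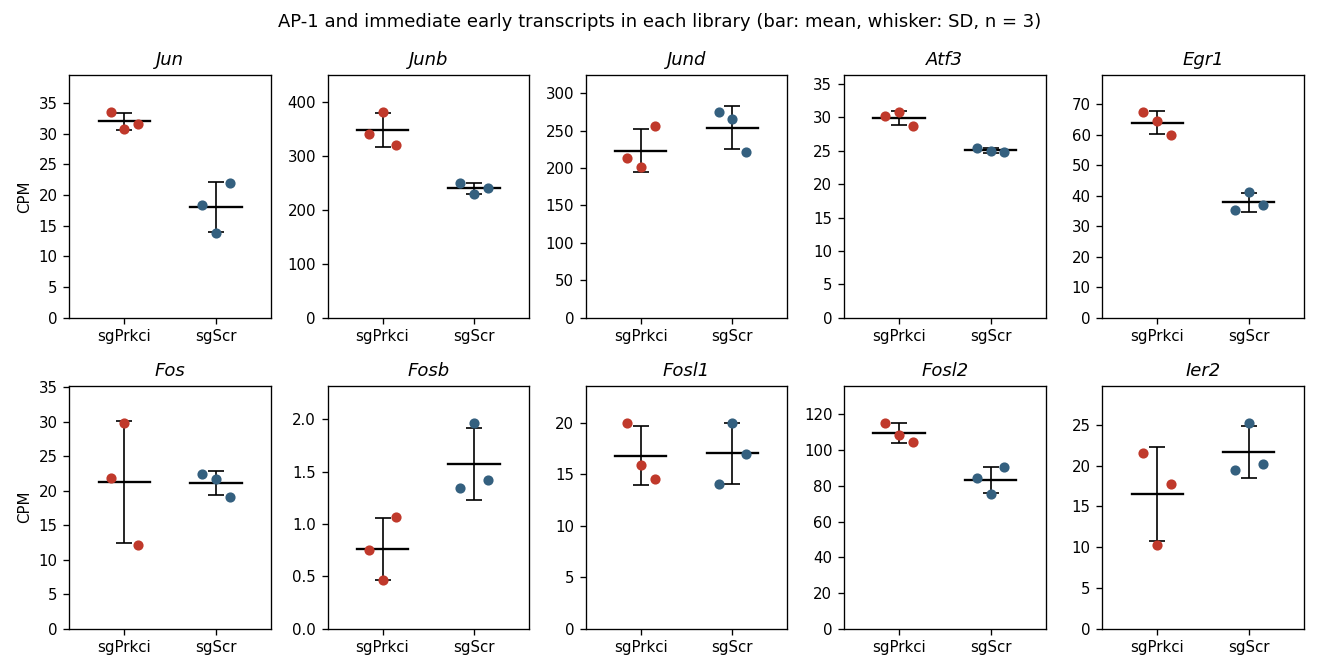
Level of each of the 10 transcripts in CPM (vertical axes, each starting at 0) in the 3 sgPrkci libraries (left in each panel) and the 3 sgScr libraries (right), with means as bars and SD as whiskers. The groups lie apart for Jun, Junb, Atf3, Egr1 and Fosl2, which are higher in sgPrkci, and for Fosb, which is lower at 2 CPM or less.

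Junb, the most abundant member in sgPrkci, encodes a JUN protein that is a weaker activator than JUN and can restrain it. It had 341, 382 and 320.3 CPM in sgPrkci against 250.1, 230 and 240.3 CPM in sgScr. The lowest sgPrkci library lay above the highest sgScr library. Means were 348 ± 31.4 CPM in sgPrkci and 240.0 ± 10.2 CPM in sgScr (SD, n = 3 each), a log2 fold change of 0.53 (SE 0.08, limma adjusted p = 1.5e-05).

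Jun, the founding member of the family and a strong activator, was far less abundant than Junb. It had 33.6, 30.8 and 31.6 CPM in sgPrkci against 18.4, 13.8 and 22.0 CPM in sgScr. The 3 sgPrkci libraries lay close together and above every sgScr library, which varied more. Means were 32.0 ± 1.41 CPM in sgPrkci and 18.1 ± 4.11 CPM in sgScr (SD, n = 3 each), with a log2 fold change of 0.81 (SE 0.17, limma adjusted p = 0.00047). An antisense RNA, Junos, overlaps the Jun exon by 232 bases and had at most 0.467 CPM in sgPrkci and 0.984 CPM in sgScr.

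Jund, a JUN protein that is made in resting cells and is less tied to stimulation, went the other way without passing the test. It had 213, 201 and 255 CPM in sgPrkci against 275, 265 and 221 CPM in sgScr. The groups overlapped, since sgPrkci replicate 3 was above sgScr replicate 3. The log2 fold change was -0.19 (95% interval -0.38 to 0.01, limma adjusted p = 0.15). Without sgPrkci replicate 3 it was -0.29 (limma adjusted p = 0.041) and without sgScr replicate 3 -0.28 (limma adjusted p = 0.032), so that leaving out either library made Jund lower.

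The make-up of the JUN family therefore differed between the groups, on a measure that needs no scaling between libraries. Junb took 58.1%, 62.2% and 52.7% of the reads of the 3 JUN genes in the sgPrkci libraries, against 46.0%, 45.1% and 49.7% in the sgScr libraries. Jund took 36.2%, 32.8% and 42.0% in sgPrkci, against 50.6%, 52.2% and 45.8% in sgScr. Jun took 5.71%, 5.02% and 5.20% in sgPrkci, against 3.39%, 2.71% and 4.54% in sgScr. None of these shares overlapped between the groups. The shares of a library add up to the whole and follow from the levels above, so they are not separate results. In CPM, 43% of all genes tested did not overlap between the groups. The ratio of Junb to Jund reads was 1.6, 1.9 and 1.25 in sgPrkci, against 0.91, 0.865 and 1.08 in sgScr. The sum of the 3 genes was 603 ± 13.6 CPM in sgPrkci and 512 ± 29.98 CPM in sgScr (SD, n = 3 each). These shares are a description with no test, because the genes were chosen with results of these data known.

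**Figure D2:**
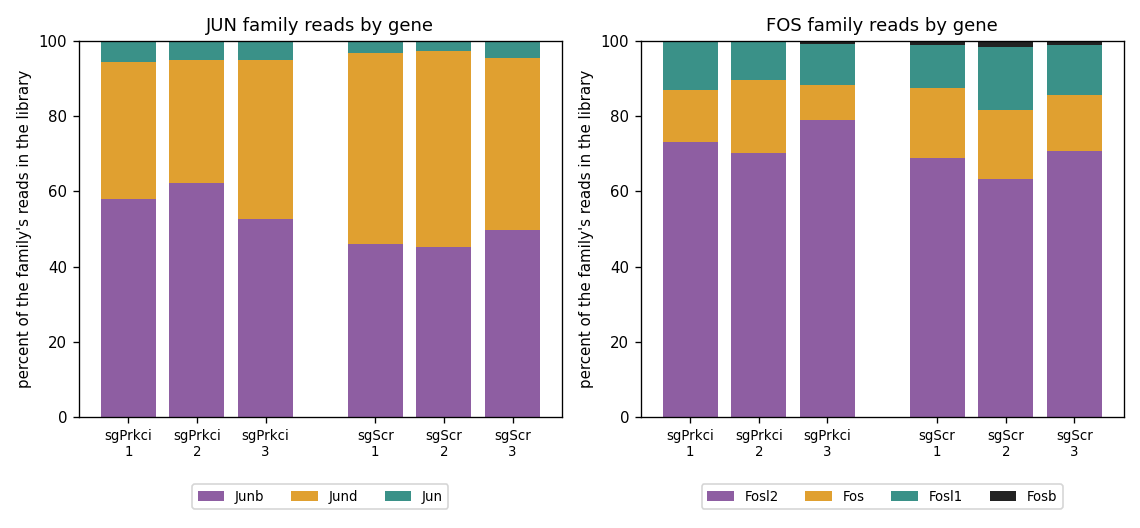
Share of each gene in the reads of its family (vertical axes, percent of the family's reads in a library) for the JUN family (left panel) and the FOS family (right panel), 1 bar per library, sgPrkci libraries left of sgScr libraries. Junb takes 52.7% to 62.2% of JUN reads in sgPrkci and 45.1% to 49.7% in sgScr, while Fosl2 is the largest part of the FOS reads in all 6 libraries.

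The promoter windows of Jun and Junb, the JUN genes that rose, are shown to compare the letters around their starts. RefSeq on GRCm38.p6 gives 250 bases before and 50 after the start of transcription, and windows were found for 7 of the 10 members (Jun, Junb, Jund, Fos, Fosb, Fosl2 and Atf3). The Jun window is chr4:95052173-95052472 on the minus strand, and the Junb window is chr8:84978699-84978998 on the minus strand. Capitals mark the CCAAT box (CCAAT) in both, the octamer TGACATCA in Jun, a known variant of the AP-1 and CRE sequences, and the letters of the TATA box (TATAAA) in Junb.
Jun: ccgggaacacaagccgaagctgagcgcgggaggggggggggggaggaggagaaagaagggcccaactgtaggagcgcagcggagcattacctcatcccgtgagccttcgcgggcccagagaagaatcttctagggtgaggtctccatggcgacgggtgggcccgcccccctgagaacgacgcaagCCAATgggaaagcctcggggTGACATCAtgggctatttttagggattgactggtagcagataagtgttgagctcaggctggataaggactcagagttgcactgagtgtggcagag
Junb: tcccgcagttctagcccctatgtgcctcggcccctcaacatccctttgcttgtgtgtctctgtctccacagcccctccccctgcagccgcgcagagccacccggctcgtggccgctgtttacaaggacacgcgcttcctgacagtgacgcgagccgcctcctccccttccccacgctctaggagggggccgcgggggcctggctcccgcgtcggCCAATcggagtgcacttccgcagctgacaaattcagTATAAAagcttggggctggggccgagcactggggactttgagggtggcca
The octamer lies at positions -45 to -38 of the Jun window, counted from the RefSeq start, and 3.62% of all 32851 windows hold it on either strand. The CCAAT letters lie at -65 to -61 in Jun and at -36 to -32 in Junb, and 37.4% of windows hold them. Atf3, which did not pass the test, also holds them, at 6 to 10 on the minus strand. The window of Jund, which did not pass either, lies ahead of its GENCODE start and holds none of the motifs searched for. The TATAAA letters of Junb lie at 1 to 6, at the RefSeq start itself and not ahead of it, and the GENCODE start of Junb, at base 84978718, lies further downstream. Neither the Jun nor the Junb window has the exact AP-1 sequence TGANTCA (7.81% of windows), the CRE sequence TGACGTCA (1.79%) or the CArG box of serum response factor (1.63%). A match of letters is a description and not a binding site.

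In the FOS family, Fosl2 (FRA2) was the most abundant member in every library, and it was the member of the family that rose. Fosl2 encodes a FOS protein without the strong activation domain of FOS. It had 115, 108 and 104 CPM in sgPrkci against 84.1, 75.5 and 90.4 CPM in sgScr. Each sgPrkci library was above each sgScr library. Means were 109 ± 5.57 CPM in sgPrkci and 83.3 ± 7.49 CPM in sgScr (SD, n = 3 each), with a log2 fold change of 0.39 (SE 0.10, limma adjusted p = 0.0043). The call ended with plain eBayes moderation, at limma adjusted p = 0.055.

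Fos, the classical immediate early gene, had 21.9, 29.9 and 12.1 CPM in sgPrkci against 22.5, 21.7 and 19.1 CPM in sgScr. Its sgPrkci libraries spanned both sides of all 3 sgScr libraries. The SD was 8.92 CPM in sgPrkci, 3.06 times the SD that counting alone gives, and 1.73 CPM in sgScr, 0.648 times. The log2 fold change was -0.07 (95% interval -0.55 to 0.41, limma adjusted p = 0.85), a range that includes both a fall and a rise of about the size seen for Fosl2. Its sign turned under 6 of 18 alternatives.

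Fosl1 (FRA1), which is known to be driven by sustained ERK signalling, had 20.0, 15.9 and 14.6 CPM in sgPrkci against 14.1, 20.0 and 17.0 CPM in sgScr. The groups overlapped fully, with a log2 fold change of -0.02 (95% interval -0.41 to 0.37, limma adjusted p = 0.96) and a sign that turned under 9 of 18 alternatives. Its exons overlap those of Ccdc85b on the opposite strand by up to 1055 bases. Ccdc85b was listed at 0 in all 3 sgPrkci libraries and reached at most 0.709 CPM in sgScr.

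Fosb, a close relative of Fos, was near the limit of detection. It had 2, 1 and 3 reads in the sgPrkci libraries (0.754, 0.467 and 1.07 CPM) against 4, 6 and 4 reads in the sgScr libraries (1.34, 1.97 and 1.42 CPM). The 3 sgPrkci values were below the 3 sgScr values. Summed over the group it had 6 reads in sgPrkci and 14 in sgScr, a ratio by depth of 0.499 with an exact 95% counting interval of 0.157 to 1.38. The log2 fold change of -0.55 did not pass (limma adjusted p = 0.26), and a difference was not detectable at this depth.

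Within the FOS family the shares overlapped between the groups for 3 genes. Fosl2 took 73.0%, 70.1% and 79.0% of FOS reads in sgPrkci, against 69.0%, 63.4% and 70.6% in sgScr. Fos took 13.8%, 19.3% and 9.14% in sgPrkci, against 18.4%, 18.2% and 15.0% in sgScr. Fosl1 took 10.3% to 12.6% in sgPrkci and 11.5% to 16.8% in sgScr. Fosb, at 0.302% to 0.806% in sgPrkci and 1.10% to 1.65% in sgScr, was the fourth and did not overlap. Its shares rest on only 2, 1 and 3 reads in the sgPrkci libraries and 4, 6 and 4 in the sgScr libraries. Among all genes tested, 43% did not overlap between the groups in CPM. The sum of the 4 genes was 148 ± 14.1 CPM in sgPrkci and 123 ± 4.50 CPM in sgScr (SD, n = 3 each). FOS reads per JUN read were 0.269, 0.252 and 0.218 in sgPrkci, against 0.225, 0.234 and 0.264 in sgScr, and overlapped.

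The windows of Fosl2, which rose, and of Fos, which did not pass, are shown side by side. The Fosl2 window is chr5:32136222-32136521 on the plus strand, and the Fos window is chr12:85473640-85473939 on the plus strand. Capitals mark matches to the NF-kappaB site in both, the EGR1 site GCGGGGGCG in Fosl2, and the CRE core TGACGT and the TATA box TATAAA in Fos.
Fosl2: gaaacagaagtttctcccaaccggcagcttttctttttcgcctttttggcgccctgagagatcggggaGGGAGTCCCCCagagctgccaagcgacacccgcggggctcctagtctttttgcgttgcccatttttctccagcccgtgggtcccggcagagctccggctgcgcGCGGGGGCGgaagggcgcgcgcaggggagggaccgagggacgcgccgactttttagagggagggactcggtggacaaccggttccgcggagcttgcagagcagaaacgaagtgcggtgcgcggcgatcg
Fos: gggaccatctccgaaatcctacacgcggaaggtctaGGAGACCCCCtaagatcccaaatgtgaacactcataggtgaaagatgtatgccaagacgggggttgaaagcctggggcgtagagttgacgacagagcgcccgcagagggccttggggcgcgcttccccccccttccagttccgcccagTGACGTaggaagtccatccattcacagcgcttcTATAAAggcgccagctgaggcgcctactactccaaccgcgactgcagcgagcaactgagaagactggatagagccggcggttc
In the Fosl2 window the NF-kappaB letters lie at -182 to -172, as overlapping matches on both strands, and the EGR1 letters at -79 to -71. In the Fos window the NF-kappaB letters lie at -214 to -205, the CRE core at -66 to -61 and the TATA box at -33 to -28. Of all windows, 4.51% hold the NF-kappaB site, 3.47% an EGR1 site (GCGTGGGCG or GCGGGGGCG), 7.51% the CRE core and 13.6% the TATA box. Fosb, which was barely detected, also has an NF-kappaB match and an EGR1 match. The windows span 300 bases around the RefSeq start, which for Fosl2 lies inside the GENCODE gene, and neither holds the letters of the CArG box.

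Egr1, a zinc finger factor induced by growth factors through serum response factor, rose with little spread. It had 67.5, 64.5 and 60.0 CPM in sgPrkci against 35.2, 41.3 and 36.9 CPM in sgScr. The groups were separated by a gap wider than the range of either. Means were 64.0 ± 3.77 CPM in sgPrkci and 37.8 ± 3.17 CPM in sgScr (SD, n = 3 each), with a log2 fold change of 0.75 (SE 0.12, limma adjusted p = 2.7e-05). Reads of Egr1 per read of Fos were 3.09, 2.16 and 4.97 in sgPrkci, against 1.57, 1.91 and 1.93 in sgScr.

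Atf3, a stress-induced partner of JUN proteins, had 30.2, 30.8 and 28.8 CPM in sgPrkci against 25.5, 24.9 and 24.8 CPM in sgScr. All sgPrkci libraries were above all sgScr libraries, by a small margin. The log2 fold change of 0.25 did not pass (95% interval -0.06 to 0.55, limma adjusted p = 0.22). Its SD was 0.304 of that from counting alone in sgPrkci and 0.123 in sgScr, so the 3 libraries lay closer than counting gives on average. The gene lies on chromosome 1, whose genes had a median log2 fold change of 0.18.

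Ier2, an intronless immediate early gene, had 21.5, 10.3 and 17.8 CPM in sgPrkci against 19.4, 25.3 and 20.2 CPM in sgScr. Replicate 2 of sgPrkci was the lowest library, with 22 reads, and the groups overlapped. The log2 fold change was -0.42 (95% interval -0.85 to 0.01, limma adjusted p = 0.13). It was -0.63 without sgPrkci replicate 1 (limma adjusted p = 0.038), which made Ier2 lower, and -0.13 without sgPrkci replicate 2 (limma adjusted p = 0.67).

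Ordered by mean level, sgPrkci ran Junb, Jund, Fosl2, Egr1, Jun, Atf3, Fos, Fosl1, Ier2 and Fosb. In sgPrkci the ranges of neighbours were apart from Junb down to Jun, overlapped from Jun to Ier2, and were apart again at Fosb. In sgScr the order was Jund, Junb, Fosl2, Egr1, Atf3, Ier2, Fos, Jun, Fosl1 and Fosb. There Jund and Junb overlapped, and so did neighbours from Atf3 to Fosl1. Jun was thus the eighth of 10 in sgScr and the fifth in sgPrkci, and the summed level of all 10 was 846 to 874 CPM in sgPrkci and 694 to 746 CPM in sgScr.

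Libraries of sgPrkci differed among themselves, without an order that all members shared. Replicate 1 was the highest of the 3 for Jun, Egr1, Fosl1, Fosl2 and Ier2. Replicate 2 was the highest for Fos, Junb and Atf3 and the lowest for Jun, Jund, Ier2 and Fosb. Replicate 3 was the lowest for Fos, Junb, Atf3, Egr1, Fosl1 and Fosl2 and the highest for Jund and Fosb. In sgPrkci the SD was 3.01 times that from counting alone for Jund, 2.66 times for Junb and 2.22 times for Ier2, against 0.395 for Jun and 0.745 for Egr1. In sgScr it was 3.07 times for Jund, 1.13 times for Junb and 1.17 times for Ier2, against 1.66 for Jun and 0.887 for Egr1.

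**Figure D3:**
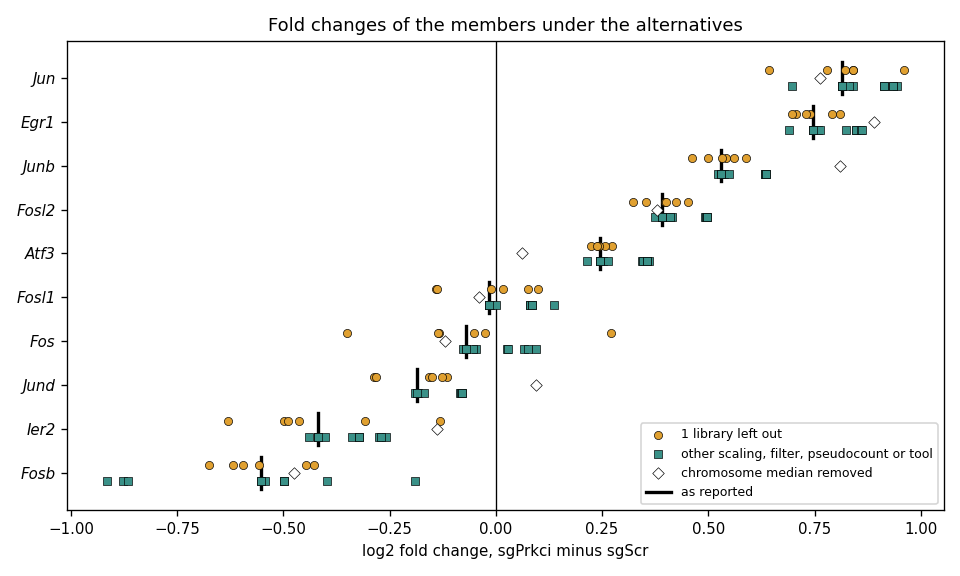
Log2 fold change of each member, sgPrkci minus sgScr (horizontal axis), as reported (black bar) and under each alternative: 1 library left out (circles), another scaling, filter, pseudocount or tool (squares) and chromosome medians removed (diamonds). Jun stays between 0.64 and 0.96 and Egr1 between 0.69 and 0.89, while Fos runs from -0.35 to 0.27 across 0.

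The fold changes were also set beside the median of each member's chromosome. Junb, Jund and Ier2 all lie on chromosome 8, whose genes averaging 10 CPM or more had a median log2 fold change of -0.28 against -0.08 for all such genes. Junb (chromosome 8, 84974484 to 84978718, minus strand, GENCODE M21 on GRCm38) rose where its chromosome was lower, 0.81 above that median. Ier2 (chromosome 8, 84661331 to 84662852), whose start lies 315866 bases from that of Junb on the same strand, was 0.14 below it. Jund (chromosome 8, 70698949 to 70700616) was 0.09 above it, so that its sign turned when the median was removed. Egr1 (chromosome 18, 34859823 to 34864984) was 0.89, Jun (chromosome 4, 95049034 to 95052222) 0.76 and Fosl2 (chromosome 5, 32135801 to 32157842) 0.38 above their chromosomes' medians, while Atf3 (chromosome 1, 191170296 to 191218039) was 0.06 above. Fos was 0.12, Fosb 0.48 and Fosl1 0.04 below the medians of their chromosomes. Whether position in the genome bears on these changes was not tested. With chromosome medians removed, limma again called 4 members higher and 0 lower, where 13.1% of genes were higher and 13.3% lower (26.5% in all).

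**Figure D4:**
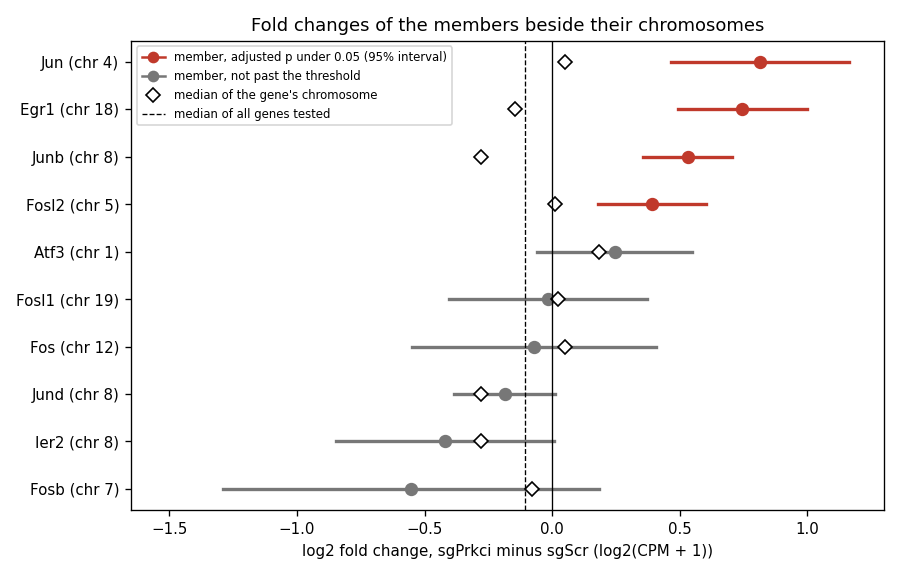
Difference of sgPrkci minus sgScr in log2(CPM + 1) for each member (horizontal axis), with its 95% interval from limma; red marks members past the threshold, diamonds the median of the member's chromosome and the dashed line the median of all genes tested, at -0.11. Junb stands at 0.53 while its chromosome 8 stands at -0.28, and Atf3 at 0.25 stands near its chromosome 1 at 0.18.

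Further features that the choice of genes did not use were read from the annotation. Jun, Jund and Ier2 have 1 annotated transcript of 1 exon each, and Junb has 2 transcripts of 1 or 2 exons. The Junb exons overlap those of Prdx2 on the opposite strand by up to 173 bases. Prdx2 had 145, 145 and 136 CPM in sgPrkci against 136, 133 and 121 CPM in sgScr, and without a known strand setting of the counting their reads and those of Junb cannot be told apart in the overlap. The AU-rich pentamer ATTTA, a landmark of short-lived messenger RNAs, was counted in the 3' untranslated region of the transcript in which that region is longest. It occurred 4.91 times per kb in Fos, 4.12 in Junb, 3.24 in Jun, 2.53 in Atf3, 1.88 in Jund, 1.72 in Fosl2, 1.64 in Egr1, 1.57 in Fosl1, 0.434 in Fosb and 0 in Ier2. The median of 10695 tested genes was 1.35 per kb. The 4 members that rose thus stand at 1.64 to 4.12 per kb, and Fos, which did not pass, stands above them. These densities rest on 0 to 8 pentamers a gene, so their order turns on few matches. Junb and Egr1 have 2 each, Jun and Fos 4 each and Fosl2 8.

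Other genes of the AP-1 and Maf leucine zipper families moved both ways. Of 12 listed genes 8 were tested, with 2 higher, 3 lower and 3 not past the test, where 11.4% of all genes were higher and 20.5% lower. Their median log2 fold change was -0.09, against -0.11 over all genes. Jdp2, which encodes a repressor that pairs with JUN proteins, had 30.6, 34.1 and 36.6 CPM in sgPrkci against 54.6, 80.4 and 57.4 CPM in sgScr (log2 fold change -0.89, SE 0.14, limma adjusted p = 1.4e-05). Maf, a large Maf factor, rose to 12.4, 13.5 and 11.7 CPM in sgPrkci, against 4.02, 3.61 and 4.25 CPM in sgScr (log2 fold change 1.45, SE 0.24, limma adjusted p = 2.0e-05). The small Maf gene Mafg fell by 0.26 (limma adjusted p = 0.023), a call that held under 10 of 18 alternatives. It ended under 7 with the sign kept. It also ended with chromosome medians removed, where the sign turned (0.14, limma adjusted p = 0.24). The other gene that rose was Maff, named after its values were seen, at 0.34 (limma adjusted p = 0.049), and that call ended under 6 alternatives, among them leaving out sgPrkci replicate 1 or 2 or sgScr replicate 1 or 2.

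Among other immediate early genes the calls were all in 1 direction. Of 28 listed genes 22 were tested, with 10 higher, 0 lower and 12 not past the test, where among all genes tested 11.4% were higher and 20.5% lower (31.8% in all). Their median log2 fold change was 0.29. At an unadjusted p under 0.05 (limma) 11 were higher and 0 lower, where 1803 of all 12195 genes were higher and 3226 lower. With edgeR 11 were higher and 0 lower, where 15.9% of all genes were higher and 14.7% lower. With DESeq2 10 were higher and 0 lower, where 11.7% of all genes were higher and 9.17% lower. Ier3, which encodes a survival factor of stressed cells, had 1815, 1826 and 1681 CPM in sgPrkci against 696, 526 and 623 CPM in sgScr (log2 fold change 1.54, SE 0.08). Btg2, an antiproliferative gene, had 83.7, 91.1 and 77.4 CPM in sgPrkci against 28.2, 27.6 and 27.3 CPM in sgScr (log2 fold change 1.57, SE 0.12). Zfp36l1 and Zfp36 encode proteins that bind AU-rich elements and speed the decay of messenger RNAs. Zfp36l1 had 275, 273 and 271 CPM in sgPrkci against 184, 153 and 186 CPM in sgScr, and Zfp36 had 61.1, 66.3 and 37.6 CPM in sgPrkci against 27.5, 29.2 and 30.1 CPM in sgScr. Calls of these 4 held under all 18 alternatives, and the other 6 genes that rose did so by 0.27 to 2.10. Of those 6, Klf10 lost its call under 5 of 18 alternatives (plain eBayes moderation, and without sgPrkci replicate 1 or 2 or sgScr replicate 1 or 3). Klf6 and Phlda1 lost theirs with plain eBayes moderation, and Ccn2 lost its call without sgScr replicate 1 (limma adjusted p = 0.093). The nuclear receptor genes Nr4a1 and Nr4a2, often induced with Fos, had log2 fold changes of 0.03 (limma adjusted p = 0.94) and -0.31 (limma adjusted p = 0.32), and were chosen after their values were seen, as was Myc at 0.15 (limma adjusted p = 0.77).

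Of the genes of AU-rich decay and AP-1 protein turnover, 9 of 9 were tested, of which 3 rose and 1 fell, where 11.4% of all genes rose and 20.5% fell (31.8% in all). Their median log2 fold change was 0.16. Zfp36 and Zfp36l1 are among the 3 and belong to both lists. Hnrnpd (AUF1), which binds the same elements, had 190, 193 and 184 CPM in sgPrkci against 108, 143 and 144 CPM in sgScr (log2 fold change 0.53, SE 0.10, limma adjusted p = 0.00017). Zfp36l2, the third gene of the Zfp36 family in the list, fell to 53.2, 51.8 and 53.3 CPM in sgPrkci, against 83.1, 76.4 and 68.7 CPM in sgScr (log2 fold change -0.52, SE 0.11, limma adjusted p = 0.00086). Fbxw7, Cop1 and Itch, whose proteins mark JUN for degradation, did not pass, with log2 fold changes of 0.16, 0.27 and 0.0006, and are named after their values were seen.

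Of 14 MAP kinase pathway genes that signal to AP-1, 12 were tested, of which 5 rose and 1 fell, where 11.4% of all genes rose and 20.5% fell. Their median log2 fold change was 0.04, and 3 were higher with plain eBayes moderation or without sgPrkci replicate 1. Mapk3, which encodes ERK1, had 252, 223 and 220.5 CPM in sgPrkci against 119, 85.3 and 124 CPM in sgScr (log2 fold change 1.09, SE 0.11, limma adjusted p = 2.7e-08). The ribosomal S6 kinase genes downstream of ERK rose too. Rps6ka1 had 43.8, 38.3 and 55.4 CPM in sgPrkci against 26.5, 21.7 and 20.2 CPM in sgScr, and Rps6ka3 had 123, 137 and 115 CPM in sgPrkci against 73.8, 82.7 and 92.1 CPM in sgScr. Map2k1 (MEK1), named after its values were seen, rose by 0.32. Its call ended with plain eBayes moderation and without sgPrkci replicate 1, sgPrkci replicate 2 or sgScr replicate 1. Mapk9, a gene of the JUN kinase branch, fell to 13.2, 20.1 and 13.1 CPM in sgPrkci, against 23.1, 24.6 and 27.6 CPM in sgScr (log2 fold change -0.69, limma adjusted p = 0.0046). It lies on chromosome 11, and its call ended with DESeq2 and when chromosome medians were removed (-0.29, limma adjusted p = 0.245).

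Of 11 genes for serum response factor, its partners, CREB factors and EGR cofactors, all tested, 2 rose and 0 fell, where 11.4% of all genes rose and 20.5% fell. Their median log2 fold change was 0.11. At an unadjusted p under 0.05 (limma) 4 were higher and 0 lower, where 1803 of all 12195 genes were higher and 3226 lower. With edgeR 3 were higher and 0 lower, where 15.9% of all genes were higher and 14.7% lower. With DESeq2 2 were higher and 0 lower, where 11.7% of all genes were higher and 9.17% lower. Nab1, a corepressor of EGR proteins, had 295, 254 and 267 CPM in sgPrkci against 225, 226 and 222 CPM in sgScr (log2 fold change 0.27, limma adjusted p = 0.013). Elk4, a partner of serum response factor, had 51.7, 65.4 and 46.9 CPM in sgPrkci against 35.5, 40.4 and 43.2 CPM in sgScr (log2 fold change 0.44, limma adjusted p = 0.013). Both lie on chromosome 1, and both calls ended when chromosome medians were removed and with plain eBayes moderation. That of Nab1 also ended without sgPrkci replicate 1 and that of Elk4 without sgPrkci replicate 2. Srf itself had 21.1, 22.0 and 17.4 CPM in sgPrkci against 14.4, 13.5 and 15.2 CPM in sgScr, and did not pass (log2 fold change 0.46, limma adjusted p = 0.053). It is named after its values were seen.

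Of 20 textbook targets of AP-1, 11 were tested, with 6 higher, 1 lower and 4 not past the test, where among all genes tested 11.4% were higher and 20.5% lower. With plain eBayes moderation 3 were higher. The count of lower genes was 2 without sgPrkci replicate 3, without sgScr replicate 1 and with a pseudocount of 5 CPM. Their median log2 fold change was 0.47. Cd44, an adhesion receptor of tumor cells, had 1827, 1594 and 1525 CPM in sgPrkci against 914, 947 and 1157 CPM in sgScr (log2 fold change 0.72, SE 0.08). Plau, which encodes urokinase, had 27.2, 22.4 and 17.4 CPM in sgPrkci against 10.7, 14.1 and 10.99 CPM in sgScr (log2 fold change 0.84, SE 0.20). The metallothionein gene Mt2 had 37.7, 38.3 and 42.3 CPM in sgPrkci against 8.72, 21.3 and 17.0 CPM in sgScr (log2 fold change 1.36, SE 0.23). The gene that fell was Ccnd1 (cyclin D1), with 649, 549 and 601 CPM in sgPrkci against 859, 977 and 1136 CPM in sgScr (log2 fold change -0.72, SE 0.09). Calls of these 4 held under all 18 alternatives. Those of the other 3 genes that rose, named after their values were seen, did not. Plaur lost its call under 9 of 18, among them each left-out library except sgPrkci replicate 3. Hbegf lost its call under 6, among them sgPrkci replicate 1 or 2 or sgScr replicate 2 or 3 left out, and Ptgs2 under 1, plain eBayes moderation. Of the matrix protease genes, named after their values were seen, Mmp9 was at 0 in all 6 libraries and Mmp13 averaged 0.481 CPM in sgPrkci and 0.335 CPM in sgScr.

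**Figure D5:**
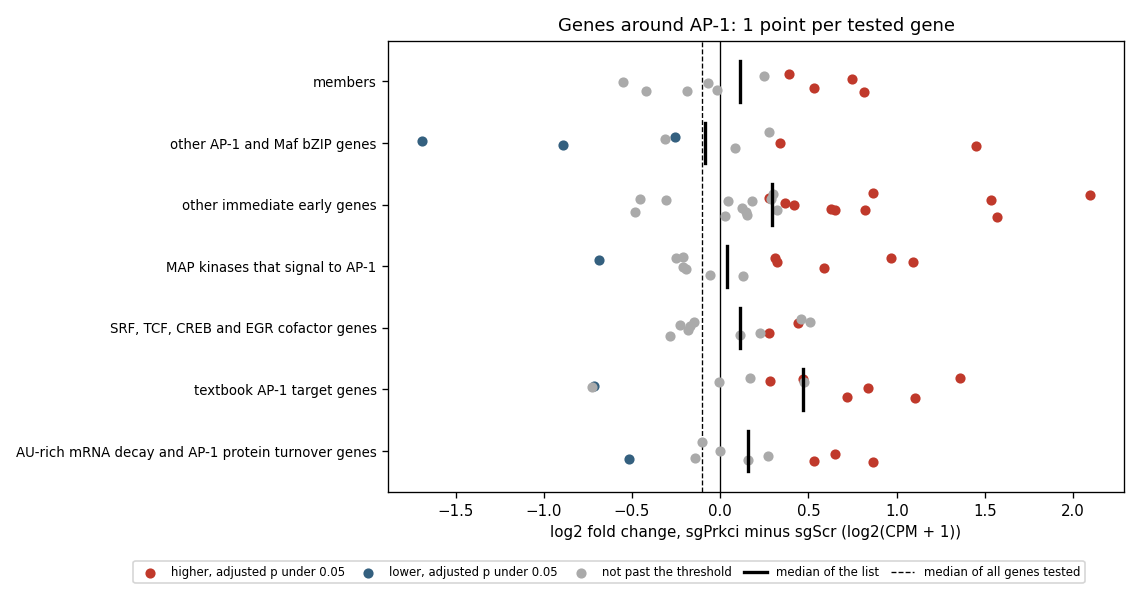
Difference of sgPrkci minus sgScr in log2(CPM + 1) (horizontal axis) for every tested gene of the members and of 6 lists around AP-1 (rows); red and blue points passed the threshold as higher and lower, grey did not, bars are list medians and the dashed line is the median of all genes tested, at -0.11. Other immediate early genes have 10 red and 0 blue points, while other leucine zipper genes have 2 red and 3 blue points.

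For each member that rose, the genes with the most similar profile were sought among 7741 other named genes averaging 10 CPM or more. Likeness was the root mean square difference of log2(CPM + 1), centred on each gene's mean over the 6 libraries. For Jun the closest were Atp8a1 (0.065), Ntan1 (0.075) and Tjp3 (0.090), and for Junb they were Mid2 (0.032), Sft2d2 (0.039) and Znrf2 (0.044). For Fosl2 they were Col4a2 (0.025), Stard10 (0.035) and Med13l (0.037), and for Egr1 they were Acsbg1 (0.041), Dnajc10 (0.051) and Gpa33 (0.055). No member was among the 3 closest genes of another. With only 3 of 7741 genes kept for each, that does not tell whether the members moved together.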

How the data were processed

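RNA of 3 sgPrkci and 3 sgScr organoid cultures (200 ng each) was sequenced as QuantSeq 3' tags, with molecular identifiers an option of the kit, in single reads of 75 bases on a NextSeq 500 machine, per the labels' protocols. The submitters' processing notes name GRCm38. The sources used here do not name the aligner, the counter, its strand setting or the use of molecular identifiers. The deposited table holds CPM made by the authors, and each column sums to 1000000. All of its 124536 values (100%) were whole multiples of 1 read, to a tolerance of 1e-06 of a read, which gave the reads back. Of its columns, 0 were unmapped. Groups came from the genotype label, and replicate numbers are accession order. Library pairs within a group differed by more than sampling noise (chi-square per degree of freedom 1.63 to 3.18).

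Names, positions and exons came from GENCODE M21 (81 identifiers without an entry) and promoter windows from RefSeq on GRCm38.p6. Genes at 1 CPM or more in 3 or more libraries were tested with limma 3.58.1 (R 4.3.3) on log2(CPM + 1), which understates changes of low genes, with trended variances and robust moderation (two-sided), with Benjamini-Hochberg adjustment over 12195 genes and a threshold of 0.05. The fit was tested on simulated data. "Rose" and "fell" refer to that test. Alternatives, 18 in all, were other pseudocounts, filters, scalings and moderation, each library left out, removal of each chromosome's median (from genes averaging 10 CPM or more, on chromosomes with 50 or more of them), and edgeR 4.0.16 and DESeq2 1.42.0 on whole reads, which called 3741 and 2540 genes. Counting intervals cover counting error only. The members, lists and tests were chosen with earlier results of these data known. Named genes were all members, up to 4 called genes of each list with the lowest p, and the 3 genes closest to each called member, with Gm and Rik names skipped. The CRE core, JUN octamer, TATA and CCAAT motifs, the ATTTA counts and other genes named as such were chosen after values or sequences were seen. Some genes of the lists are counted but not reported by name here.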

Additional observations from a re-analysis of the deposited data

How the results depend on the processing

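Jun, Junb and Egr1 kept their direction and stayed past the threshold under all 18 alternatives, with log2 fold changes of 0.64 to 0.96, 0.46 to 0.81 and 0.69 to 0.89. Fosl2 ran from 0.32 to 0.50 and missed the threshold with plain eBayes moderation only, where 3 members were higher. Leaving out 1 library gave 4 members higher each time and 0 to 1 lower. The 1 was Ier2 without sgPrkci replicate 1 and Jund without sgPrkci replicate 3 or without sgScr replicate 3. The sign of Fos turned with TMM (0.027), median-of-ratios (0.028) and quantile scaling (0.067), edgeR (0.077) and DESeq2 (0.095), and its values ran from -0.35 to 0.27 with 1 library left out. The sign of Fosl1 turned with TMM (0.081), median-of-ratios (0.081) and quantile scaling (0.14), edgeR (0.084), DESeq2 (0.084) and totals without Gm42418 and mitochondrial genes (0.000383), and its values ran from -0.14 to 0.10 with 1 library left out. With chromosome medians removed, Jund was at 0.093 and Mafg at 0.14, and 1624 genes were lower against 2495. DESeq2 called 1118 genes lower. With TMM 1918 genes were higher and 1816 lower, against 1387 and 2495 as reported. Over the 6 lists 26 genes were higher and 6 lower, and 16 were higher with plain eBayes moderation. The cause of these changes was not tested, except that chromosome medians were removed by construction. Fosb has no value with a filter at 5 CPM. No paired analysis was possible because the replicate numbers are accession order and pair no libraries. Depth limits Fosb, with 1 to 6 reads a library.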
